A study of Mus musculus with 26 samples.

Results

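The 10 genes described encode the chromatin remodeler ATRX, its partner DAXX, the histone variant H3.3 (H3f3a and H3f3b), the chaperones that carry or deposit H3.3 (Hira, Cabin1, Ubn1, Asf1a) and 2 proteins of PML bodies (Pml and Sp100). They were chosen by name and matched by Ensembl gene identifier, with the version removed, to the GENCODE M21 annotation of GRCm38. All 10 were found among the 53801 genes of the RNA tables. The cells were female mouse embryonic fibroblasts (MEFs) that express Xist RNA, per the study's methods. WT cells carry unedited Atrx. ATRXΔRBR cells are 1 clone in which CRISPR-Cas9 removed, in frame, a region of Atrx exon 9 that encodes the RNA binding region (RBR). Cells labelled ATRX KD received an shRNA against ATRX and puromycin selection. RNA-Seq was available in 2 libraries for each of the 3 groups. CUT&RUN, which cuts out and sequences DNA under an antibody-bound protein, gave peak lists in 2 replicates each for ATRX (WT and ATRXΔRBR) and for EZH2 and H3K27me3 (all 3 groups).

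ATRX and DAXX form a complex that deposits H3.3 at telomeres and other heterochromatin. The HIRA complex, with UBN1 and CABIN1 as subunits, deposits the same variant at active genes, and ASF1A hands H3 and H4 to such complexes. PML bodies are nuclear bodies built on PML protein, in which SP100, DAXX and ATRX are also found. EZH2 is the catalytic subunit of Polycomb repressive complex 2, which writes H3K27me3, and this mark accumulates on the inactive X chromosome coated by Xist RNA.

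The estimated counts summed to between 9051693 and 21723647 per library, and both extremes were libraries labelled ATRX KD. The fibroblast character of the cells was checked on 11 marker genes, of which 9 exceeded 1 TPM (RSEM's abundance per transcript, scaled to a fixed sum in each library) in every library and 1 was at 0 in all 6. Their summed level was 1.15e+04 to 2.35e+04 TPM, against 0.08 to 0.91 TPM for 4 epithelial markers, 6.18 to 13.8 TPM for 3 haematopoietic markers, 0 to 5.22 TPM for 2 endothelial markers and 0 to 0.35 TPM for 2 pluripotency markers. Some markers differed between groups. Of 10 fibroblast markers tested, edgeR called 1 higher and 1 lower in ATRXΔRBR and 3 higher and 3 lower in the libraries labelled ATRX KD, each against WT. Of all tested genes it called 6.88% and 33.1% in these comparisons. The collagen gene Col3a1 was at a mean of 66.4 CPM (counts scaled to the same total in every library) in WT, 35.1 CPM in ATRXΔRBR and 0.496 CPM in the libraries labelled ATRX KD, and was called lower in both comparisons (edgeR adjusted p = 0.0225 and 2.44e-05). Twist1 and Twist2, mesenchymal transcription factors, were called lower in the libraries labelled ATRX KD (log2 fold change -0.84 and -0.72, edgeR adjusted p = 0.00451 and 0.0281). The endothelial marker Pecam1 was at a mean of 1.64 CPM in WT, 4.6 CPM in ATRXΔRBR and 0 CPM in the libraries labelled ATRX KD (edgeR adjusted p = 0.0479 and 0.00373 against WT). The part of these differences in the values of the 10 genes was not tested. Replicate libraries of WT and of ATRXΔRBR differed more (chi-square per degree of freedom 24 and 19.6) than those labelled ATRX KD (2.95). The raw file names of the libraries labelled ATRX KD have a different form from the others, which share a sequencing run, and name no run. Whether these libraries were sequenced with the others is not known, so a batch difference and the knockdown cannot be told apart.

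The promoters of the genes differed widely in CpG content. Stretches upstream of the RefSeq start site that overlap no annotated exon are shown for 6 genes because the peaks described further on fall on some of them and not on others. They are on GRCm38.p6, on the strand of the gene, with matches on either strand in capitals, to CCAAT (the box bound by NF-Y), to GGGCGG (the core bound by Sp1) and to the palindrome TGACGTCA (the cyclic AMP response element). The core of the interferon-stimulated response element was also searched and had no match in any of the 10 genes.
Atrx, chrX:105929404-105929622, minus strand: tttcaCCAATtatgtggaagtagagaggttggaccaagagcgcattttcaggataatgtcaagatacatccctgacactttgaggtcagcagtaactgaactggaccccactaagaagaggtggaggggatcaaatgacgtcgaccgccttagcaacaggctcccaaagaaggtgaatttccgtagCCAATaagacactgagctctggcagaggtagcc
Daxx, chr17:33909318-33909413, plus strand: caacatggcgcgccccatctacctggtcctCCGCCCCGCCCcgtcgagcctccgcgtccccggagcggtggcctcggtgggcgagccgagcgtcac
Ubn1, chr16:5049864-5050056, plus strand: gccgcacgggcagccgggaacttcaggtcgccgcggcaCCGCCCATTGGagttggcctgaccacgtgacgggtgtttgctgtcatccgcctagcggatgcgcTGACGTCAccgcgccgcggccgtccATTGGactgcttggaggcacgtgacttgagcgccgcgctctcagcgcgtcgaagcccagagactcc
Cabin1, chr10:75764358-75764607, minus strand: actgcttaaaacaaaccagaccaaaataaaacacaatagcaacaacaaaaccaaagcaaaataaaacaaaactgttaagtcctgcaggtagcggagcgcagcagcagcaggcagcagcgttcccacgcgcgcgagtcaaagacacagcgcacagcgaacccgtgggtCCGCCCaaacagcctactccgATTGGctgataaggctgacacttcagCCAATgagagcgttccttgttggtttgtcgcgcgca
Pml, chr9:58249787-58250036, minus strand: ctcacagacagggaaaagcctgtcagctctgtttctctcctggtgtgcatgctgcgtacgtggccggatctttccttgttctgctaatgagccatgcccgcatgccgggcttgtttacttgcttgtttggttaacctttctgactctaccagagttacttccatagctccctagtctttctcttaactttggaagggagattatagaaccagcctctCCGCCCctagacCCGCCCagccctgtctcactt
Sp100, chr1:85649738-85649987, plus strand: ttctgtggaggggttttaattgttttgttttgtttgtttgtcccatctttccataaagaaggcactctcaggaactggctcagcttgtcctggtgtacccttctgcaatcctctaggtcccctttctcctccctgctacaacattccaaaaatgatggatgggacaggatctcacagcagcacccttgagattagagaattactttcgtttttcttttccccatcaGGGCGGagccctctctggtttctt

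Over the full 250 bases before the RefSeq start (the first listed where a gene has several), CG dinucleotides numbered 35 at H3f3a, 31 at Ubn1 and at Asf1a, 29 at Daxx and at Hira, 19 at H3f3b and 16 at Cabin1. Atrx had 6, Pml 7 and Sp100 2, against a median of 6 over 32851 RefSeq promoters. CCAAT matches occurred in 33.8% of those promoters, and H3f3b held 4 and Atrx 3. GGGCGG occurred in 32.7%, with 4 matches at H3f3a, 3 at Hira and 2 each at Daxx, Asf1a and Pml. The palindrome TGACGTCA occurred in 1.55% of promoters and, among the 10 genes, at Ubn1. The interferon-stimulated response element core occurred in 2.98%.

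In WT MEFs the H3.3 genes ranked first and next to last of the 10. Compared per transcript length, H3f3b had the highest level, 502 and 582 TPM, and H3f3a had 16.7 and 16.8 TPM, although both encode the same protein. H3f3b accounted for 96.3 to 97.8% of the summed TPM of the pair in the 6 libraries. H3f3a resembles 37 annotated pseudogenes in sequence and H3f3b 3. How reads matching several of these were assigned is not given in the sources used here, so the share is uncertain. Asf1a followed H3f3b, at 207 and 293 TPM, and Atrx came next, at 141 and 233 TPM, so that Asf1a and Atrx overlapped. Hira (54.2 and 72.3 TPM) and Ubn1 (61.1 and 61.4 TPM) overlapped one another. Daxx (33.3 and 37.4 TPM), Cabin1 (27.2 and 43.1 TPM) and Pml (34.3 and 34.4 TPM) also overlapped. Sp100 was listed at 0 in both WT libraries. H3f3b stayed first and Sp100 last in the order of mean TPM in ATRXΔRBR and in the libraries labelled ATRX KD, and H3f3a stayed next to last.

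Sp100 was not measurable in these cells. Its estimated count was 0 in 5 libraries and 1 in replicate 2 labelled ATRX KD, so it failed the filter on low counts and no change can be given. The other 9 genes passed that filter (more than 10 counts in all libraries of a comparison together) in all 3 comparisons. Levels between libraries are given below as CPM after TMM scaling, and fold changes come from the quasi-likelihood test of edgeR, with p-values adjusted by the Benjamini-Hochberg method over all genes tested. In these bulk samples, fewer cells of a type and less RNA per cell cannot be told apart. The study's methods call the RNA replicates biological, but the labels and methods do not say whether they were separate cultures, so the tests measure the spread between these libraries.

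**Figure D1:**
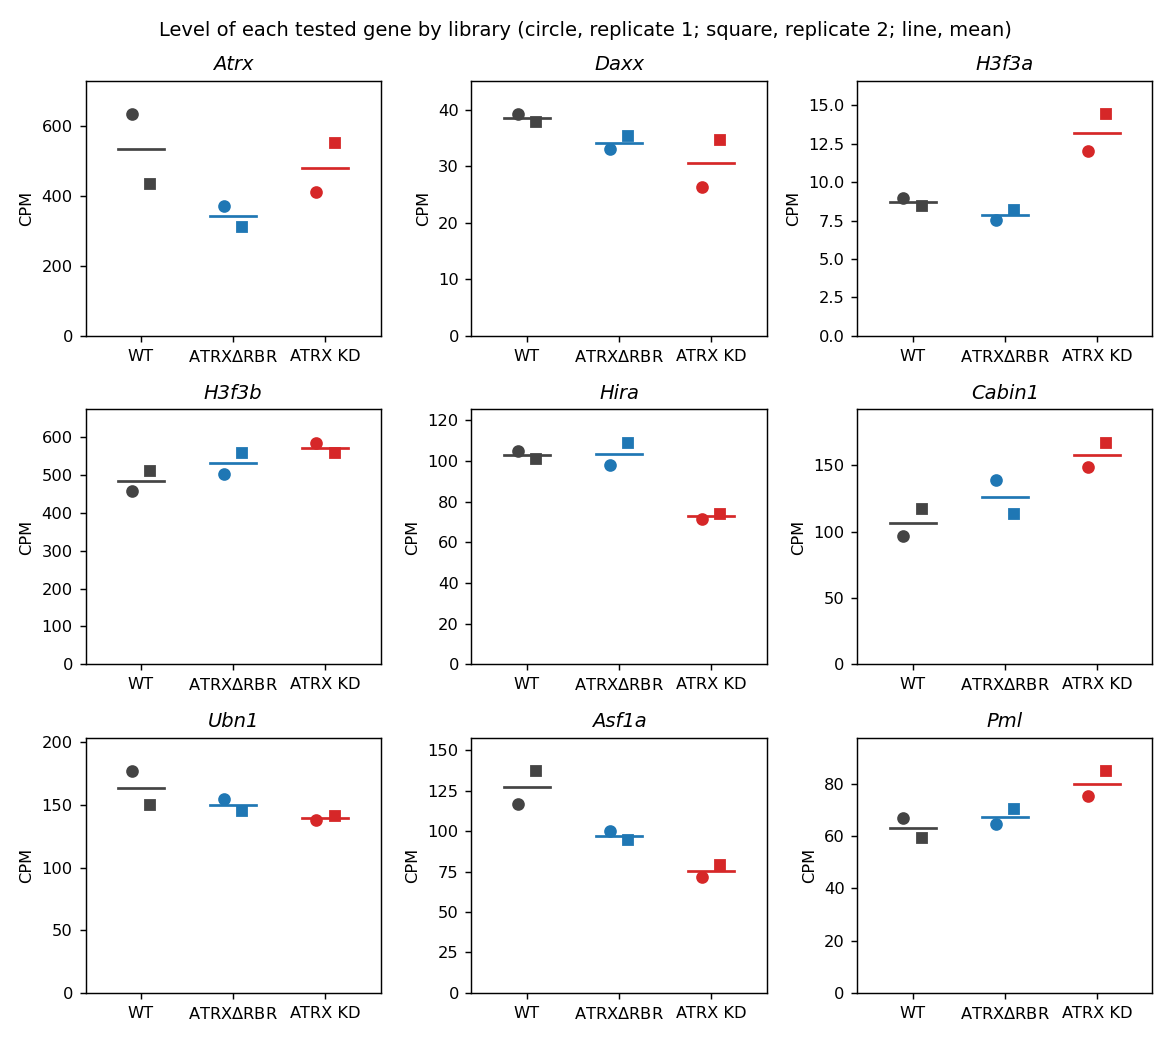
CPM after TMM scaling (y axes, linear, from 0) of the 9 tested genes in the 6 RNA libraries, with WT, ATRXΔRBR and ATRX KD on the x axes; points are libraries and lines are means of 2. Asf1a lies between 71.8 and 78.9 CPM in the libraries labelled ATRX KD, under all 4 other libraries, and H3f3a between 12 and 14.4 CPM, above all 4.

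Atrx, the targeted gene, was not called lower in the libraries labelled ATRX KD by counts. Its level was 633 and 434 CPM in WT, 371 and 312 CPM in ATRXΔRBR, and 411 and 550 CPM in the libraries labelled ATRX KD. Both ATRXΔRBR libraries were under both WT libraries, while the libraries labelled ATRX KD overlapped WT. The log2 fold change of the libraries labelled ATRX KD against WT was -0.15 ± 0.21 (SE; edgeR adjusted p = 0.604). ATRXΔRBR against WT gave -0.63 ± 0.22 (edgeR adjusted p = 0.14). This value passed when replicate 2 of WT was left out, at -0.88 (edgeR adjusted p = 0.0114), and when no filter on low counts was used, at -0.65 (edgeR adjusted p = 0.00806). It was smaller without replicate 1 of WT, at -0.33 (edgeR adjusted p = 0.612), and without replicate 2 of ATRXΔRBR, at -0.50 (edgeR adjusted p = 0.366). On the TPM scale it was -0.32 (limma adjusted p = 0.662). The edited region lies in the largest exon, exon 9 (chrX:105874560-105877573), whose 3014 bases are 29.3% of the longest transcript. Per the study the deletion is a part of this exon, so it removes a smaller share of that transcript. The part of uncounted deleted bases in the lower count was not tested. By western blot the study reports less ATRX and DAXX protein in its ATRX KD MEFs, and protein was not measured here. Because these RNA values do not show the knockdown, these libraries are named by their label throughout.

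The transcripts to which Atrx reads were assigned were much shorter in the libraries labelled ATRX KD. The mean transcript length, weighted by estimated abundance, was 4974 and 6292 bases in WT, 4524 and 4840 bases in ATRXΔRBR, and 2839 and 2405 bases in the libraries labelled ATRX KD. The 3 groups did not overlap. Of 9510 genes with at least 5 TPM in all libraries, 1075 were shorter in both ATRXΔRBR libraries than in both WT libraries. For the libraries labelled ATRX KD against WT it was 2683. RSEM's correction of lengths for read ends had a median of 36.55 bases in the libraries labelled ATRX KD and 37 bases in the others. Its part in the Atrx lengths was not tested. The annotation holds 27 Atrx transcripts from 468 to 10275 bases long, of which 23 are under 3000 bases and 14 are protein-coding. Given these lengths, the longest transcript, ENSMUST00000113573, could make up 0 to 45.9% and 17.8 to 59.4% of Atrx transcripts in the 2 WT libraries. In the 2 libraries labelled ATRX KD it could make up 0 to 24.2% and 0 to 19.8%. These ranges overlap, so they do not show a lower share of this transcript. The group means differed by a ratio of 0.466, a ratio that 2 of 9510 genes with at least 5 TPM in all libraries, Atrx included, reached or went below (0.021%). For ATRXΔRBR against WT the ratio was 0.831, which 65 genes (0.683%) reached or went below. The median ratio over these genes was 0.998 and 1, respectively.

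Because TPM divides by that length, Atrx rose on the TPM scale. It was at 233 and 141 TPM in WT, 175 and 124 TPM in ATRXΔRBR, and 331 and 512 TPM in the libraries labelled ATRX KD. The libraries labelled ATRX KD were above all 4 others. The difference from WT on log2(TPM + 1) was 1.17 (limma adjusted p = 0.0434), of opposite sign to the count-based value. Gene-level RNA values therefore gave 2 directions for Atrx, depending on whether reads or transcripts were counted. Where along the gene the reads lay was not analysed here.

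**Figure D2:**
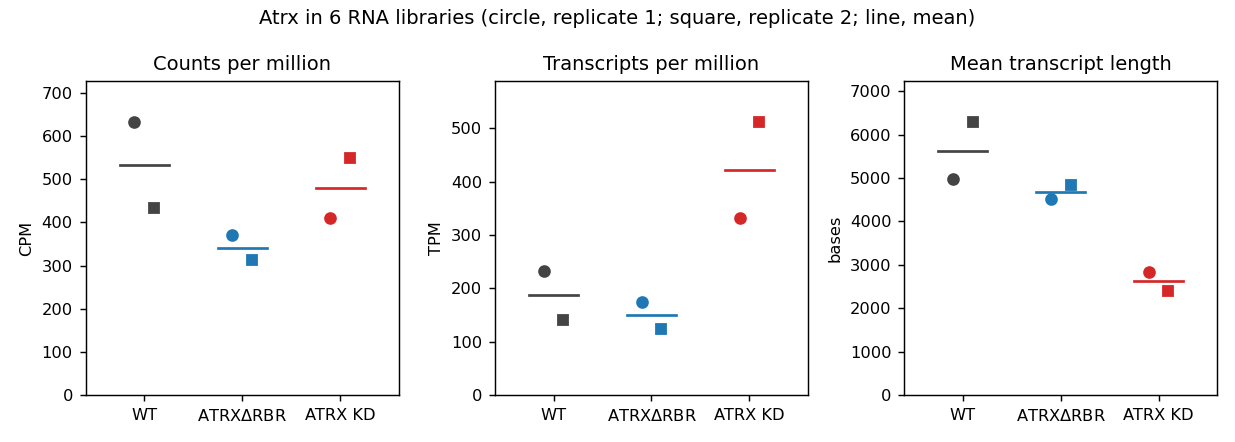
Atrx in the 6 RNA libraries by TMM-scaled CPM, by TPM and by mean transcript length in bases (linear y axes from 0); points are libraries and lines are means of 2. CPM overlaps between WT and the libraries labelled ATRX KD, TPM is highest and length is shortest in the libraries labelled ATRX KD, at 2405 and 2839 bases.

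In ATRXΔRBR none of the 9 tested genes passed the threshold in the fit without a pairing of libraries, at a background of 6.88% of 16287 genes called (1120 genes). At an unadjusted p under 0.05 from edgeR, which 3355 of the 16287 genes reached, Atrx was the single member, and DESeq2 called 0 members, where it called 6.91% of all genes. Asf1a was at 117 and 137 CPM in WT and at 100 and 94.4 CPM in ATRXΔRBR, with a log2 fold change of -0.38 ± 0.18 (SE; edgeR adjusted p = 0.28). Cabin1 was at 96.7 and 117 CPM in WT and 139 and 113 CPM in ATRXΔRBR, and the groups overlapped. Daxx was at 39.2 and 37.8 CPM in WT and 33.1 and 35.3 CPM in ATRXΔRBR, a log2 fold change of -0.16 ± 0.17 (edgeR adjusted p = 0.659). H3f3b was at 503 and 558 CPM in ATRXΔRBR and 456 and 509 CPM in WT (0.14 ± 0.16, edgeR adjusted p = 0.687). Hira, at 97.9 and 109 CPM, and Ubn1, at 155 and 145 CPM in ATRXΔRBR, overlapped their WT values of 105 and 101 CPM and of 177 and 150 CPM. The libraries of 4 members (Atrx, Daxx, H3f3a and Asf1a) did not overlap between the groups, where 49.6% of all tested genes did not.

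In the libraries labelled ATRX KD, 4 of the 9 tested genes passed against WT, at a background of 33.1% of 16748 genes called (5542 genes). Asf1a and Hira were lower and Cabin1 and H3f3a were higher. The called members thus split evenly by direction, and with 9 genes the count is near the background. Hira, Cabin1 and Asf1a belong to the HIRA and ASF1A route of H3.3 deposition, as does Ubn1, which did not pass. The genes were chosen for such roles, so these calls are no result about the route.

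Asf1a, the chaperone that hands on H3 and H4, was at 117 and 137 CPM in WT and at 71.8 and 78.9 CPM in the libraries labelled ATRX KD. Its log2 fold change was -0.76 ± 0.13 (SE; edgeR adjusted p = 0.00606), a ratio of 0.592. Hira, which gives its name to its complex, was at 105 and 101 CPM in WT and at 71.6 and 74.2 CPM, and its log2 fold change was -0.50 ± 0.12 (edgeR adjusted p = 0.0167). Cabin1, a subunit of the same complex, was at 96.7 and 117 CPM in WT and at 149 and 167 CPM in the libraries labelled ATRX KD. It thus moved opposite to Hira, by 0.56 ± 0.14 (edgeR adjusted p = 0.0214). Ubn1, the other subunit, was at 177 and 150 CPM against 138 and 141 CPM and did not pass (-0.23 ± 0.13, edgeR adjusted p = 0.204). Left out in turn, replicate 1 labelled ATRX KD took all 4 calls with it, and replicate 2 took those of Hira, Cabin1 and H3f3a (edgeR adjusted p from 0.0623 to 0.369 over the lost calls). Without replicate 2 of WT the log2 fold change of H3f3a was 0.58, the lone WT library then being assumed to vary like the other group. Counts of calls from fits with a lone library in a group are no result about the 9 genes.

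The H3.3 genes were both at higher values in the libraries labelled ATRX KD, and H3f3a passed. H3f3a was at 8.95 and 8.43 CPM in WT and at 12 and 14.4 CPM in the libraries labelled ATRX KD, a log2 fold change of 0.61 ± 0.19 (edgeR adjusted p = 0.0454). The estimated counts behind it were 117 and 101 in WT and 110 and 311 in the libraries labelled ATRX KD. H3f3b was at 456 and 509 CPM against 584 and 558 CPM and did not pass (0.24 ± 0.11, edgeR adjusted p = 0.146). The H3f3a call did not hold with DESeq2 (adjusted p = 0.134) or on the TPM scale (limma adjusted p = 0.104). H3f3a shares at least 90% identity over 300 bases or more with 37 annotated pseudogenes, whose estimated counts summed to 19 to 45 per library, and with the lincRNA Gm17275 that overlaps it on the opposite strand (35 to 139 counts). How reads matching several of these were assigned is not given in the sources used here, so the H3f3a values are uncertain.

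Genes of the DAXX and PML group did not pass against WT. Daxx was at 39.2 and 37.8 CPM in WT and at 26.4 and 34.6 CPM in the libraries labelled ATRX KD, without overlap, and its log2 fold change was -0.33 ± 0.16 (edgeR adjusted p = 0.165). Pml, the scaffold of PML bodies, was at 66.8 and 59.3 CPM in WT, 64.4 and 70.3 CPM in ATRXΔRBR, and 75.1 and 84.7 CPM in the libraries labelled ATRX KD. Its log2 fold change of the libraries labelled ATRX KD against WT was 0.34 ± 0.13 (edgeR adjusted p = 0.0925). On the TPM scale Pml passed, at 0.74 (limma adjusted p = 0.0314). The libraries of 8 of the 9 members, all but Atrx, did not overlap between WT and the libraries labelled ATRX KD, where 69.9% of all tested genes did not.

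On the TPM scale with a pseudocount of 1, the called members changed in part. Hira had a difference of -0.14 (limma adjusted p = 0.609), Asf1a -0.41 (limma adjusted p = 0.171) and Cabin1 0.82 (limma adjusted p = 0.0535). The mean lengths of Hira, Asf1a and Cabin1 transcripts in the libraries labelled ATRX KD differed from those in WT by -10.4%, -9.22% and -6.44%, where that of Atrx differed by -53.4%. Reads assigned to Asf1a could also come from Mcm9, which overlaps it on the opposite strand and held 354 to 1048 counts per library. Whether counting used strand is not given in the sources used here.

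**Figure D3:**
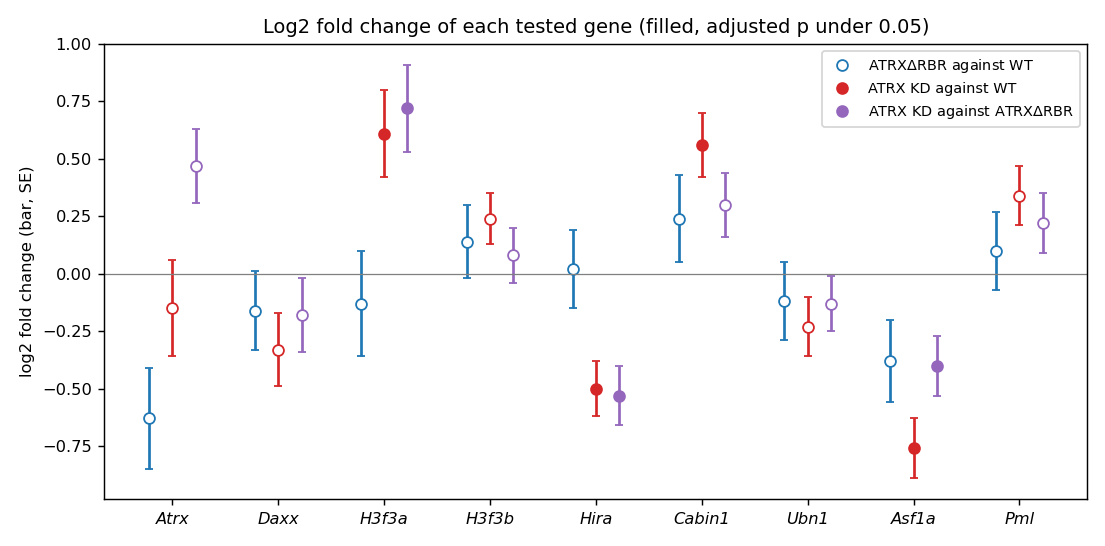
Log2 fold change (y axis) of the 9 tested genes (x axis) in 3 comparisons, with SE bars from edgeR on 2 libraries against 2; filled points passed an adjusted p of 0.05. No point of ATRXΔRBR against WT is filled, while H3f3a, Hira and Asf1a are filled in both comparisons that hold the libraries labelled ATRX KD, and Cabin1 in that against WT.

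The direct comparison of the libraries labelled ATRX KD with ATRXΔRBR called 3 of 9 members, at a background of 34.8% of 16485 genes. H3f3a, at 7.56 and 8.21 CPM in ATRXΔRBR, was higher in the libraries labelled ATRX KD by 0.72 ± 0.19 (log2, SE; edgeR adjusted p = 0.0197). Hira, at 97.9 and 109 CPM in ATRXΔRBR, was lower, with a log2 fold change of -0.53 ± 0.13 (edgeR adjusted p = 0.0117). Asf1a was also lower, with a log2 fold change of -0.40 ± 0.13 (edgeR adjusted p = 0.04). None of the 3 passed on log2(TPM + 1), where H3f3a differed by 0.62 (limma adjusted p = 0.0622), Hira by -0.23 (limma adjusted p = 0.218) and Asf1a by -0.21 (limma adjusted p = 0.213), although H3f3a passed among genes with at least 5 TPM in every library (limma adjusted p = 0.0368). Atrx was at a higher value in the libraries labelled ATRX KD, by 0.47 ± 0.16 (edgeR adjusted p = 0.053). Atrx passed with DESeq2 (adjusted p = 0.0213), with no filter (edgeR adjusted p = 0.000803) and on the TPM scale (1.49, limma adjusted p = 0.011), while the H3f3a and Asf1a calls were lost with DESeq2 (adjusted p = 0.0569 and 0.0707). Leaving out replicate 2 labelled ATRX KD lost all 3 calls and leaving out replicate 1 lost Hira and Asf1a, with adjusted p from 0.193 to 0.45. The libraries of 8 of the 9 members did not overlap between these groups, where 68.9% of all tested genes did not. Each comparison shares libraries with the others, so their values are not independent.

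Other genes of these pathways were described by 5 lists, beside which the median log2 fold change of all tested genes was -0.016 for ATRXΔRBR and -0.020 for the libraries labelled ATRX KD, each against WT. Of all tested genes, 6.88% were called in ATRXΔRBR and 33.1% in the libraries labelled ATRX KD. The counts called in each of the 5 lists are to be read beside these shares and carry no test. Of 17 other H3 chaperones, all tested, 1 was called in ATRXΔRBR: Hjurp, the chaperone of the centromeric H3 variant, at mean levels of 436 CPM against 239 CPM in WT (log2 fold change 0.87, edgeR adjusted p = 0.0462). In the libraries labelled ATRX KD, 6 were higher and 5 lower, with a median of 0.03. Hjurp (1.02, edgeR adjusted p = 0.00452) and Supt16, a FACT subunit (0.76, edgeR adjusted p = 0.00353), were the highest called, and Npm1 (-0.75, edgeR adjusted p = 0.00549) and Dek (-0.64, edgeR adjusted p = 0.00468) the lowest. DEK is itself known as an H3.3 chaperone.

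Of 18 SUMO and PML body genes 16 were tested. None was called in ATRXΔRBR, and in the libraries labelled ATRX KD 2 were higher and 4 lower (median -0.01). Hipk2, a kinase found in PML bodies, was highest, at 85.8 against 32.2 CPM (log2 fold change 1.41, edgeR adjusted p = 0.000562), followed by the acetyltransferase gene Crebbp (0.90, edgeR adjusted p = 0.0402). The SUMO-targeted ubiquitin ligase gene Rnf4 was among the lower genes (-0.55, edgeR adjusted p = 0.0122). Of 14 heterochromatin partners of ATRX none was called in ATRXΔRBR, while 5 were higher and 1 lower in the libraries labelled ATRX KD (median 0.22). Rad50 and Nbn, of the MRN complex that binds DNA breaks, were highest (0.99 and 0.49, edgeR adjusted p = 0.00138 and 0.0348), and the cohesin gene Smc3 was the 1 lower (-0.42, edgeR adjusted p = 0.0215).

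Of 16 interferon response genes, which include known inducers of PML and SP100, 14 were tested in ATRXΔRBR. There 0 were higher and 4 lower (median -0.48), among them Ifih1 and Trim25, both at 0 CPM on average against 0.998 and 0.953 CPM in WT. In the libraries labelled ATRX KD 5 of 16 were higher and 5 lower (median -0.57). Trim25, at 35.4 CPM, and Parp14, at 16.4 against 4.86 CPM, were the highest called, and Ifih1 and Irf7, both under 1 CPM in WT, the lowest. Of 10 genes of S phase and mitosis none was called in ATRXΔRBR, and 2 were higher and 3 lower in the libraries labelled ATRX KD (median -0.12). Mki67 (1.00, edgeR adjusted p = 0.0169) and Top2a (0.80, edgeR adjusted p = 0.00362) were highest, and Pcna (-0.83, edgeR adjusted p = 0.00277) and Ccnb1 (-0.49, edgeR adjusted p = 0.0389) lowest. The part of proliferation in the members' values was not tested.

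The genes whose log2 CPM followed Atrx most closely over the 6 libraries, of 9242 protein-coding genes with a mean of at least 10 CPM, were Secisbp2 (Pearson r 0.989), Wipf1 (0.981), Ankrd1 (0.979), Syt12 (0.963) and Isy1 (0.963). These values describe 6 libraries in 3 groups of 2 and carry no test. The range of Secisbp2 was narrow, 32.6 to 37.8 CPM, where Atrx ranged from 312 to 633 CPM.

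Peaks of ATRX near the start sites of the 10 genes appeared in replicate 1 lists and in no replicate 2 list. A start site peak was one that overlapped 2 kb on either side of the outermost annotated start. In WT replicate 1, which held 9141 peaks, 4 of the 10 genes had such a peak (Asf1a, Cabin1, Hira and Ubn1), where 12% of all protein-coding genes and 23% of those with at least 5 TPM in both WT libraries had one. In ATRXΔRBR replicate 1, with 6274 peaks, 2 genes had one (Asf1a and Cabin1), at backgrounds of 13.6% and 26.9%. In the replicate 2 lists, of 4781 and 4813 peaks, 0 of 10 did, at 5.7% and 4.91% of all protein-coding genes. H3f3b had a peak in both replicate 1 lists at its RefSeq start site, over 3 kb from the outermost start. With 2 lists a group and 0 genes shared by both, no difference between WT and ATRXΔRBR can be shown for these sites.

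The ATRX peaks at 2 of these start sites fell on sequence shown above. The Cabin1 peak of WT, chr10:75764257-75764442, had a fold enrichment of 4.52 by MACS2. The Ubn1 peak of WT, chr16:5049891-5050167, had a fold enrichment of 4.77. The median over the list was 4.3. Asf1a had 5.19 in WT and 3.74 in ATRXΔRBR, and Hira 3.96 in WT.

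EZH2 peaks at start sites were common among the 10 genes, as among expressed genes in general. In both WT lists 6 of 10 genes had one (Daxx, H3f3a, Hira, Cabin1, Ubn1 and Asf1a), against 44.9% of all protein-coding genes and 75.7% of expressed ones. In both ATRXΔRBR lists it was 5 of 10, against 32.4% and 57.2%. In both lists labelled ATRX KD it was 3 of 10 (Daxx, Hira and Asf1a), against 16.4% and 26.5%. The lists labelled ATRX KD were short, with 5376 and 7093 peaks against 11408 to 22418 in the other EZH2 lists, and the read depth is stated by the study as a range over all samples and not for each library. Daxx, Hira and Asf1a had an EZH2 peak at the start in all 6 lists, and H3f3b had one at its RefSeq start in all 6. Fold enrichment at Daxx was 4.63 and 6.03 for WT and 5.53 and 5 for ATRXΔRBR, while the lists labelled ATRX KD gave 4.46 and 3.66. Atrx had one in replicate 1 of WT and of ATRXΔRBR only, and Pml and Sp100 had none in any list.

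No gene of the 10 had an H3K27me3 peak at its start site in any of the 6 lists. Start site peaks were found at 14.7% of all protein-coding genes and 2.96% of expressed ones in both WT lists, at 13.7% and 4.63% in both ATRXΔRBR lists, and at 4.23% and 0.825% in both lists labelled ATRX KD. Daxx, H3f3a, Hira, Cabin1, Ubn1 and Asf1a thus had an EZH2 peak in both WT lists without an H3K27me3 peak at the start. The same held for H3f3b at its RefSeq start. Atrx had an EZH2 peak without H3K27me3 there in 2 of the 6 EZH2 lists.

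**Figure D4:**
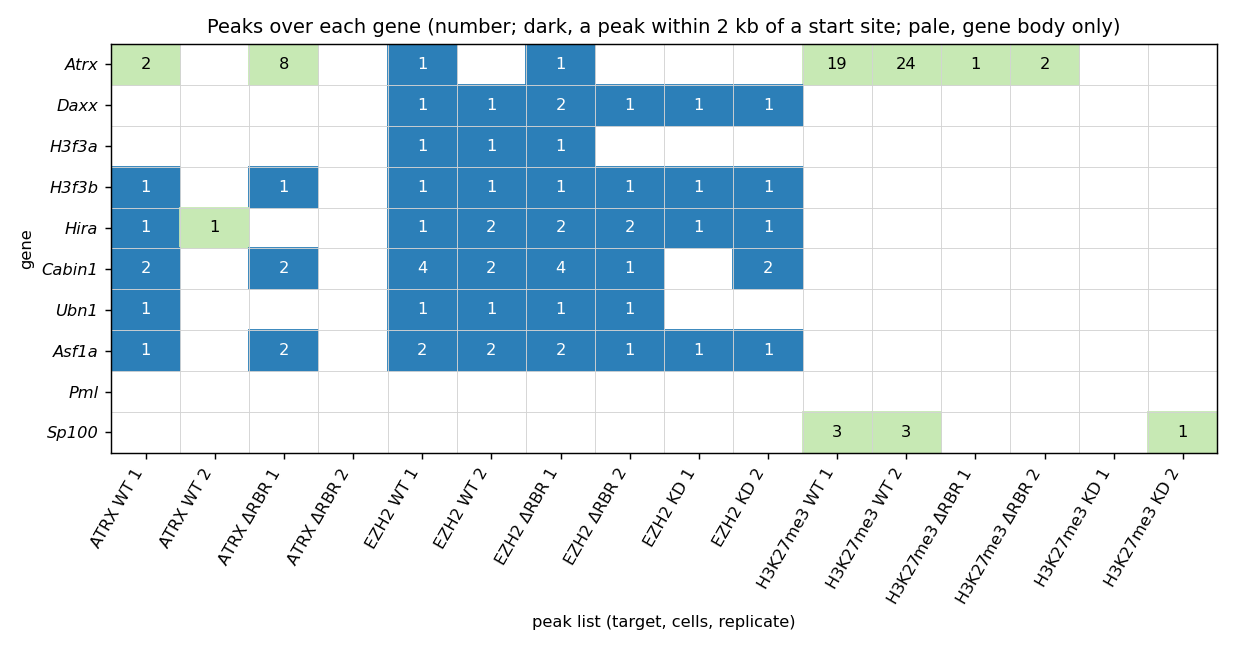
Number of peaks over each of the 10 genes (y axis) in each of the 16 peak lists (x axis); dark cells have a peak within 2 kb of an annotated or RefSeq start site, pale cells have peaks in the gene body only, and empty cells have none. EZH2 fills most of the start sites, and ATRX appears in replicate 1 lists and, in the body of Hira, in WT replicate 2. H3K27me3 appears over the bodies of Atrx (19 and 24 peaks in WT) and Sp100.

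Within gene bodies, H3K27me3 was found at Atrx and Sp100. Over Atrx, 19 and 24 peaks of 211 to 3993 bases were called in the 2 WT lists, 1 and 2 in ATRXΔRBR, and 0 in both lists labelled ATRX KD. They began 42.2 and 35.7 kb downstream of the start site in WT. They covered 15.8% and 22.8% of the gene in WT and 1% and 0.612% in ATRXΔRBR, so the groups did not overlap. The WT peaks had a fold enrichment by MACS2 of 2.81 to 4.48 and a −log10 q of 1.19 to 3.04. The lowest were close to the calling cutoff. In ATRXΔRBR the values were 3.32 to 3.56 and 1.49 to 1.84. How far these counts and covered shares depend on the cutoff was not tested. With 2 lists against 2 no exact permutation p can fall below 0.333, and no test is given. Sp100, not measurable in the RNA libraries, had 3 peaks in each WT list, 0 in both ATRXΔRBR lists, and 0 and 1 in those labelled ATRX KD.

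Atrx is X-linked, so its H3K27me3 was set beside that of other X-linked genes, a comparison added after seeing the data. Of 102 X-linked protein-coding genes at least 50 kb long and expressed in WT, 11, Atrx included, had H3K27me3 over at least 10% of their length in both WT lists. Of these 11, 9 were under both WT values in both ATRXΔRBR lists, and their median covered share was 30.9% in WT and 4.47% in ATRXΔRBR. Of 33 autosomal genes chosen the same way, 17 were lower in both ATRXΔRBR lists, with medians of 22.3% and 20%. Both sets were chosen on their WT values, so the difference from WT within a set is a description. The number of H3K27me3 peaks on the whole X chromosome was 2652 and 3105 for WT and 2473 and 1833 for ATRXΔRBR, and they covered 3.13% and 3.86% of the chromosome in WT and 4.25% and 3.17% in ATRXΔRBR, so the covered share of the whole chromosome overlapped between these groups. The lists labelled ATRX KD held 258 and 247 peaks on the X chromosome, where autosomal peaks were also few (6942 and 6046 against 31249 to 36146). Xist was at 434 and 468 TPM in WT, 305 and 237 TPM in ATRXΔRBR, and 706 and 626 TPM in the libraries labelled ATRX KD. Its part in the H3K27me3 values of Atrx was not tested.

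The Atrx gene also held the highest ATRX peak of a whole list. ATRXΔRBR replicate 1 had 8 ATRX peaks in Atrx and WT replicate 1 had 2, while both replicate 2 lists had 0. In ATRXΔRBR replicate 1 the peak over exon 35, the last exon, chrX:105800139-105800459, had a fold enrichment of 12.8, rank 1 of 6274. In WT replicate 1 a peak at the same place, chrX:105800185-105800418, had a fold enrichment of 10.2, rank 3 of 9141. In a comparison chosen after these positions were seen, all 8 peaks of ATRXΔRBR and both peaks of WT overlapped an exon of the longest transcript. Exons make up 7.8% of the gene and 85.4% of the peak bases in ATRXΔRBR replicate 1 and 76.6% in WT replicate 1. Over all protein-coding genes, 19.3% of the 1790 ATRX peaks in gene bodies away from start sites overlapped an exon in ATRXΔRBR replicate 1, and 13% of 3184 in WT replicate 1. Among the 5 protein-coding genes with at least 8 ATRX peaks in ATRXΔRBR replicate 1, Atrx had 8 of 8 peaks on exons, and each of the other 4 had 0 or 1.

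The widest of these peaks, 1094 bases with a fold enrichment of 8.38 (rank 5 by height), lay wholly in exon 9, the exon edited in these cells. It covered chrX:105876456-105877549, from 24 to 1117 bases after the exon's first base, and 38.1% of its bases were G or C. The 200 bases at its middle, coding sequence on the strand of Atrx, contain no CG dinucleotide and are shown because the peak is in the edited exon.
Atrx exon 9, chrX:105876903-105877102, minus strand: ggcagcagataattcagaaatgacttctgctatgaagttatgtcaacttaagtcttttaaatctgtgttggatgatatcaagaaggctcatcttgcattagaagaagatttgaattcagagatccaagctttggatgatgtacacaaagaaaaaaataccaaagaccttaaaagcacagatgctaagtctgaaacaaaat

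The sequence of the study's upstream guide RNA occurs within the stretch shown above, and the peak continues past it. Per the study, the sequenced deletion of the clone starts further along than the designed one. How far the peak reaches into the deleted region was not analysed here. The pattern was present in replicate 1 of both groups and in replicate 2 of neither. Of the bases of the H3K27me3 peaks over Atrx in WT, 7.74% and 8.78% were exonic, close to the 7.8% of the gene. The source of the signal over exons was not tested.

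**Figure D5:**
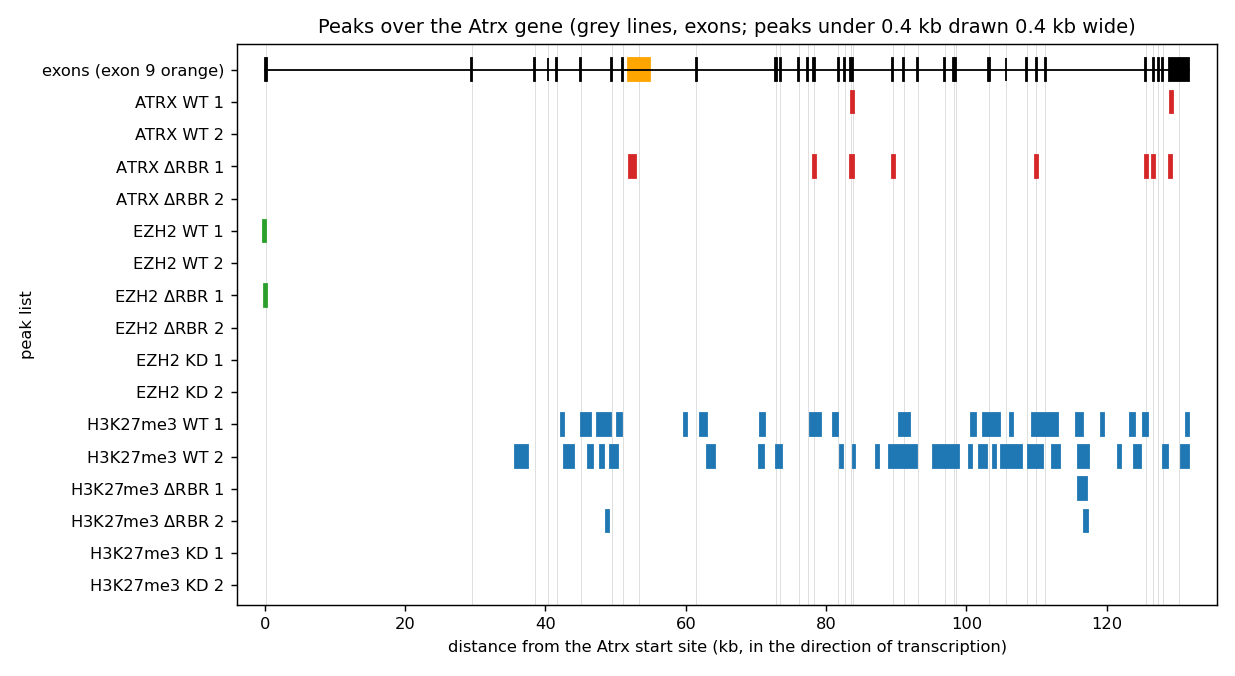
Peaks over Atrx by distance from its start site in kb (x axis, in the direction of transcription), with the exons of the longest transcript in the top row (exon 9 in orange) and a row for each peak list. ATRX peaks (red) fall on exons in the 2 replicate 1 lists, EZH2 peaks (green) at the start site, and H3K27me3 peaks (blue) over the gene from 35.7 kb on in WT, with 1 and 2 left in ATRXΔRBR.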

How the data were processed

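The members and lists were chosen with earlier results of these data known. RNA reads were aligned by the authors with STAR, and RSEM gave the deposited estimated counts, the deposited TPM, the deposited FPKM (not used) and the mean transcript length per gene; the annotation release used there is not given in the sources used here. CUT&RUN reads were mapped by the authors to mm10 with Bowtie2, and MACS2 called broad peaks in each library. The deposited peak lists give a fold enrichment ratio, a p and q as −log10 values, and a score (not used). The IgG libraries were not analysed here.

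Estimated counts were rounded to whole numbers, filtered (more than 10 in all libraries of a comparison together) and TMM-scaled. Each pair of groups was fitted separately with edgeR 4.0.16 (glmQLFit and glmQLFTest). Adjusted p under 0.05 was called. DESeq2 1.42.0 and limma 3.58.1 on log2(TPM + 1) were alternatives. The scripts were tested on simulated data. Named genes were all 10 members, at most the 2 called genes of largest change per list, comparison and direction, and the 5 genes most correlated with Atrx. A gene that this rule named is not reported here. Gene positions came from GENCODE M21, promoter and genome sequence from RefSeq GRCm38.p6, and similar transcripts from blastn 2.17.0. Peaks were compared by presence in a list, since the lists give no read depth per library.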

Additional observations from a re-analysis of the deposited data

Results flagged for a closer look

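The change of 3 of the 9 tested genes differed between the libraries labelled ATRX KD and ATRXΔRBR, each set against the same WT libraries, by the edgeR test of the difference itself (the libraries labelled ATRX KD against ATRXΔRBR, 2 against 2). The difference was 0.72 on the log2 scale for H3f3a (edgeR adjusted p = 0.0197), -0.53 for Hira (edgeR adjusted p = 0.0117) and -0.40 for Asf1a (edgeR adjusted p = 0.04), and in each gene both libraries labelled ATRX KD were on the same side of both ATRXΔRBR libraries. Of all tested genes, 34.8% were called in this comparison, so 3 of 9 is close to the background, and since it is not known whether the libraries labelled ATRX KD were sequenced with the others, a batch difference cannot be told apart from the genotype. On log2(TPM + 1) the differences were 0.62 for H3f3a, -0.23 for Hira and -0.21 for Asf1a, and none passed (limma adjusted p = 0.0622, 0.218 and 0.213).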

How the results depend on the processing

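For ATRXΔRBR against WT, the 1120 genes called became 1979 with no filter on low counts, 597 with at least 10 counts in every library and 1815 with all 6 libraries in a single fit. Members called, 0, became 1 with no filter and 1 with DESeq2 at an adjusted p of 0.1, in both cases Atrx. Leaving out 1 library in turn gave 0 to 1 members called there, 0 to 9 for the libraries labelled ATRX KD against WT (all genes 3194 to 8953) and 0 to 5 against ATRXΔRBR (all genes 3088 to 8734). On the TPM scale the sign turned for Atrx (1.17) and Ubn1 (0.19) against WT and for Daxx (0.06) and Ubn1 (0.22) against ATRXΔRBR in the libraries labelled ATRX KD. Leaving out 1 library gave Atrx there values from -0.40 (without WT replicate 2) to 0.14 (without WT replicate 1), with 0.04 without replicate 1 labelled ATRX KD, and in ATRXΔRBR against WT gave Hira from -0.05 to 0.09 and Ubn1 from -0.23 to 0.01. The causes were not tested. ATRX peaks in both lists, 0 members at start sites, became 1 anywhere in the gene for WT, and 0 to 4 (WT) and 0 to 2 (ATRXΔRBR) members in single lists. H3K27me3 became 2 (WT) and 1 (ATRXΔRBR) members anywhere in the gene, and EZH2 in the lists labelled ATRX KD 1 member at q of 0.01 or less. With 2 replicates a group, small changes could not be resolved.

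Same-numbered libraries of ATRXΔRBR and WT deviated in opposite directions (correlation of deviations -0.765). The correlation was -0.164 for the libraries labelled ATRX KD and WT, and 0.194 between those labelled ATRX KD and ATRXΔRBR. The numbers were therefore not taken as a pairing. With the replicate block H3f3a was 0.60 against WT (edgeR adjusted p = 0.0534) and Atrx 0.46 between the libraries labelled ATRX KD and ATRXΔRBR (edgeR adjusted p = 0.00665). A crossed pairing, chosen after seeing the data, called 5547 genes and 2 members for ATRXΔRBR against WT. Both members were lower, Atrx at -0.62 (edgeR adjusted p = 3.92e-06) and Asf1a at -0.37 (edgeR adjusted p = 0.00258). The pairing was taken from these same libraries, so these values are a description and no test of the members.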
